A study of Mus musculus with 12 samples.

Results

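Collagens and the other structural proteins of the extracellular matrix were examined in ileum tumours of 2 mouse genotypes, together with the enzymes that process collagen and a pair of genes of the mesenchymal cells that make it. Members were the genes whose symbol in the unnormalized table starts with Col, a number and the letter a, and 25 others named one by one (Pcolce, Lox, Sparc, Dcn, Fbn1 and the like), kept where a probe was detected (p-value under 0.05 against the negative controls) on 4 or more of the 12 arrays. The table held 60 such symbols, and 41 of them passed, among 10967 genes tested. One of the 41, Col4a3bp, is no collagen: it encodes a lipid transfer protein whose symbol fits the pattern, and it is counted but described apart. Loxl2 and Fn1, also named in the rule, were not analysed here. The 19 below the filter were Col2a1, Col4a3, Col4a4, Col4a5, Col4a6, Col5a2, Col8a2, Col9a1, Col9a2, Col9a3, Col10a1, Col11a2, Col13a1, Col19a1, Col25a1, Col28a1, Mfap5, Postn and Thbs1, of which 10 were detected on 0 arrays.

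Total RNA was hybridised to 1 Illumina bead array per tumour sample, 6 labelled FVBN/APCmin (arrays 1 to 6) and 6 labelled iPGC-1β/APCmin (arrays 7 to 12). All mice were FVB/N and 3 to 4 months old, and both genotypes carried APCmin, a truncating mutation of the tumour suppressor Apc that gives intestinal adenomas. The name iPGC-1β was read as extra PGC-1β, a coactivator that switches on mitochondrial genes, although the labels do not spell this out. They give neither a construct nor a promoter that drives it, nor whether tumours came from separate animals or were pooled. The p-values therefore measure the spread between these samples, which may be technical. The probe for Ppargc1b, the gene of PGC-1β, was not higher in iPGC-1β/APCmin (log2 difference -0.55, SE 0.30, limma adjusted p = 0.296, exact two-sided permutation p = 0.115). Extra PGC-1β is thus not visible in this probe, and directions follow the labels.

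Arrays 6 and 7 stood apart from their groups in lymphocyte markers, which are not among the members. For a gene list, each gene's log2 values were centred over the 12 arrays and then averaged per array, which gives the list's level. B cell markers (9 genes tested) had levels of 1.70 to 2.32 on arrays 1 to 5. On arrays 8 to 12 they had levels of -2.51 to -2.13, whereas array 6 was at -1.35 and array 7 at 2.92. Values with and without these arrays are therefore given below. Median raw intensity ran from 139.3 to 170.5 per array and 12858 to 14445 probes were detected. Markers of epithelium such as Vil1, which encodes the brush border protein villin, and Krt19 were high on every array, which fits the labelled tissue (log2 levels of Vil1 from 12.39 to 14.17).

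The extracellular matrix of the gut consists of fibrillar collagens, which give the stroma its tensile strength, and of basement membranes, thin sheets of collagen IV, laminin and nidogen under epithelium and around vessels. Fibrillar procollagens are trimmed at their ends outside the cell, assemble into fibrils and are then crosslinked by lysyl oxidases. Fibroblasts, smooth muscle cells, pericytes and endothelial cells make most of these proteins. On bulk RNA, more cells of a type and more RNA per cell cannot be told apart.

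Between the genotypes 1 of the 41 members passed the test and rose, Pcolce, and 40 did not pass. Each difference is a log2 value, positive where iPGC-1β/APCmin was higher, from 6 arrays a group, and the test was limma with Benjamini-Hochberg adjustment over all 10967 genes (threshold 0.05). Over all genes 3.45% passed, 2.22% higher and 1.23% lower, so 1 of 41 is near the background. No member fell (limma). At an unadjusted limma p below 0.05, 1 of the 41 members, Col23a1, was lower, against 11.8% of all genes. At the same p, 11 of the 41 members were higher, a larger share than the 11.5% of all genes (1265 of 10967). The difference lay above 0 in 32 members and below 0 in 9, while 48.6% of all genes lay above 0. The median difference of the members was 0.43, and that of all genes was -0.01.

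**Figure D1:**
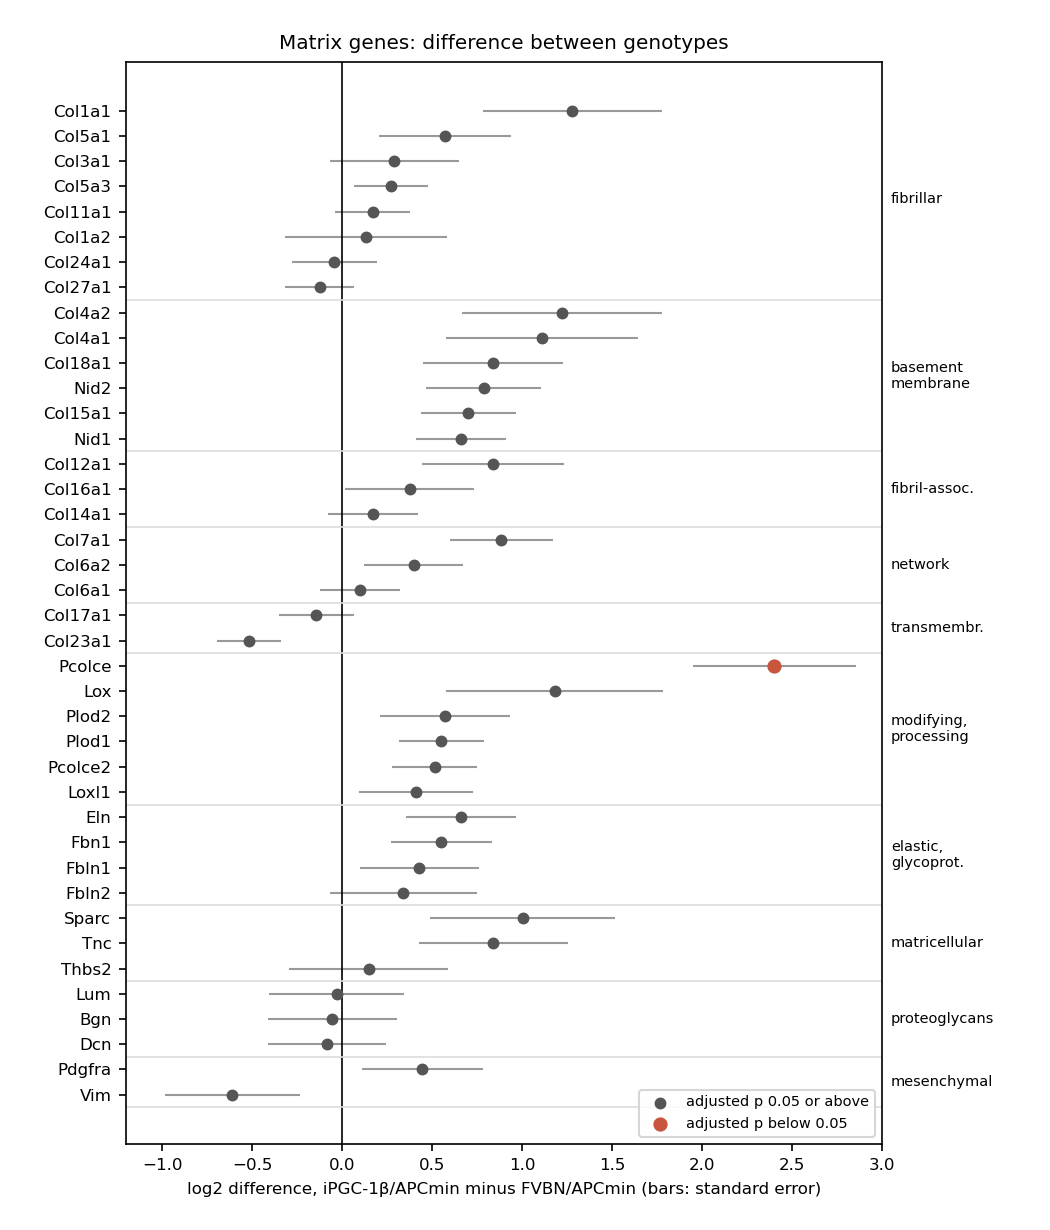
Log2 difference between iPGC-1β/APCmin and FVBN/APCmin for the 40 tested matrix genes, grouped by role (x axis, log2; bars are the standard error, n = 6 arrays per group). Pcolce at 2.40 is the gene in red, with an adjusted p below 0.05. Most other points lie right of 0, where some bars reach 0 and others stop short of it. The bars are not confidence intervals.

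Pcolce encodes procollagen C-endopeptidase enhancer, a secreted protein that binds fibrillar procollagens and speeds the removal of their carboxy-terminal ends. Its log2 level was 6.55, 7.17, 6.20, 5.91, 6.63 and 6.12 on arrays 1 to 6, and 9.14, 9.62, 7.56, 7.81, 10.60 and 8.26 on arrays 7 to 12. Every iPGC-1β/APCmin array lay above every FVBN/APCmin array, as for 1.93% of all genes, and no other member separated the groups in either direction (0.884% of all genes did so downwards). The means were 6.43 ± 0.45 and 8.83 ± 1.17 (SD, n = 6 each), a difference of 2.40 (SE 0.45, 95% confidence interval 1.43 to 3.38; limma adjusted p = 0.0139), or 5.29-fold. In the unnormalized table the intensity was 159.1 to 292.1 on arrays 1 to 6, and 673.4, 814.5, 339.7, 287.8, 1981 and 439.6 on arrays 7 to 12. There array 10 lay just below array 2, so the full separation appears after normalization.

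Array 7, which stood apart from its group in lymphocyte markers, had a Pcolce level of 9.14, inside the range of its group. The call held in each of the 12 fits that left out an array (differences from 2.05 to 2.66, adjusted p from 0.00651 to 0.0396). With the lymphocyte level as a covariate the difference was 2.81 (SE 0.61) and the limma adjusted p was 0.105, in a fit that called 4 genes in all (0.0365%). That level, the mean of the T and NK cell and B cell lists, was 1.45 to 1.90 on arrays 1 to 5 and -2.23 to -1.38 on arrays 8 to 12. It nearly follows genotype, and arrays 6 (-0.99) and 7 (2.14) are the exceptions. Fits with this covariate rest mostly on those arrays and cannot tell lymphocyte level and genotype apart. Over all alternatives with a test the limma adjusted p of Pcolce ran from 0.00288 to 0.105. Without background correction the difference was 1.54 (adjusted p = 0.0322).

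The window around the start of Pcolce (250 bases before it to 50 after, from RefSeq on GRCm38.p6, chr5:137611355-137611654, minus strand) is shown because this is the gene that changed. Capitals mark a GC box (letters GGGCGG, on either strand), which is a binding motif of the Sp family.
Pcolce: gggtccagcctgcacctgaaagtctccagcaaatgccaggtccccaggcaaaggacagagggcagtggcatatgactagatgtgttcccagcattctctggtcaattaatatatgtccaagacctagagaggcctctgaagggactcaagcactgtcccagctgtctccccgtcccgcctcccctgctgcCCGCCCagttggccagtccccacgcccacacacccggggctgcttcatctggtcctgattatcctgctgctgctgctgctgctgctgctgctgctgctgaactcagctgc
The window held 1 GC box, no CCAAT box (letters CCAAT) and no extended half-site of the estrogen-related receptors (letters TNAAGGTCA), nuclear receptors that PGC-1 coactivators act through. Each motif was sought on both strands, and the letters of these 3 motifs do not overlap in the windows shown. Among 32851 windows of this length 35.7% held the GC box, 37.4% the CCAAT box and 1.28% the receptor half-site. These are matches of letters, not measured sites. Of the 8 protein-coding genes within 50000 bases of Pcolce in RefSeq, 4 were tested and none passed (limma): Mospd3 differed by 0.54 (adjusted p = 0.306), Lrch4 by 0.29 (0.385), Agfg2 by -0.35 (0.385) and Actl6b by -0.03 (0.946).

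The other 5 tested members that modify or process collagen all had differences above 0, and none of them passed. Lox encodes lysyl oxidase, which crosslinks collagen and elastin. Its log2 level was 4.53 to 5.35 (median 4.90) in FVBN/APCmin, and 4.86, 5.33, 8.43, 4.71, 5.28 and 8.05 on arrays 7 to 12. Arrays 9 and 12 stood far above all others and the remaining 4 lay within the control range, and the difference was 1.18 (SE 0.60, limma adjusted p = 0.259). The probe was detected on 2 arrays of FVBN/APCmin and 3 of iPGC-1β/APCmin.

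Loxl1, a relative of Lox that acts on elastic fibres, differed by 0.41 (SE 0.32, limma adjusted p = 0.463) and was likewise highest on arrays 12 and 9 (9.05 and 8.93, against at most 8.13 in FVBN/APCmin). Plod1 and Plod2 encode lysyl hydroxylases, which prepare collagen for crosslinking inside the cell. They differed by 0.55 (adjusted p = 0.177) and 0.57 (adjusted p = 0.363), and Plod2 reached 7.57 on array 9 while the other iPGC-1β/APCmin arrays lay between 5.16 and 5.96. Pcolce2, the paralog of Pcolce, differed by 0.52 (SE 0.24, adjusted p = 0.208). It was detected on 1 array of FVBN/APCmin and 3 of iPGC-1β/APCmin, so it passed the detection filter with no array to spare.

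**Figure D2:**
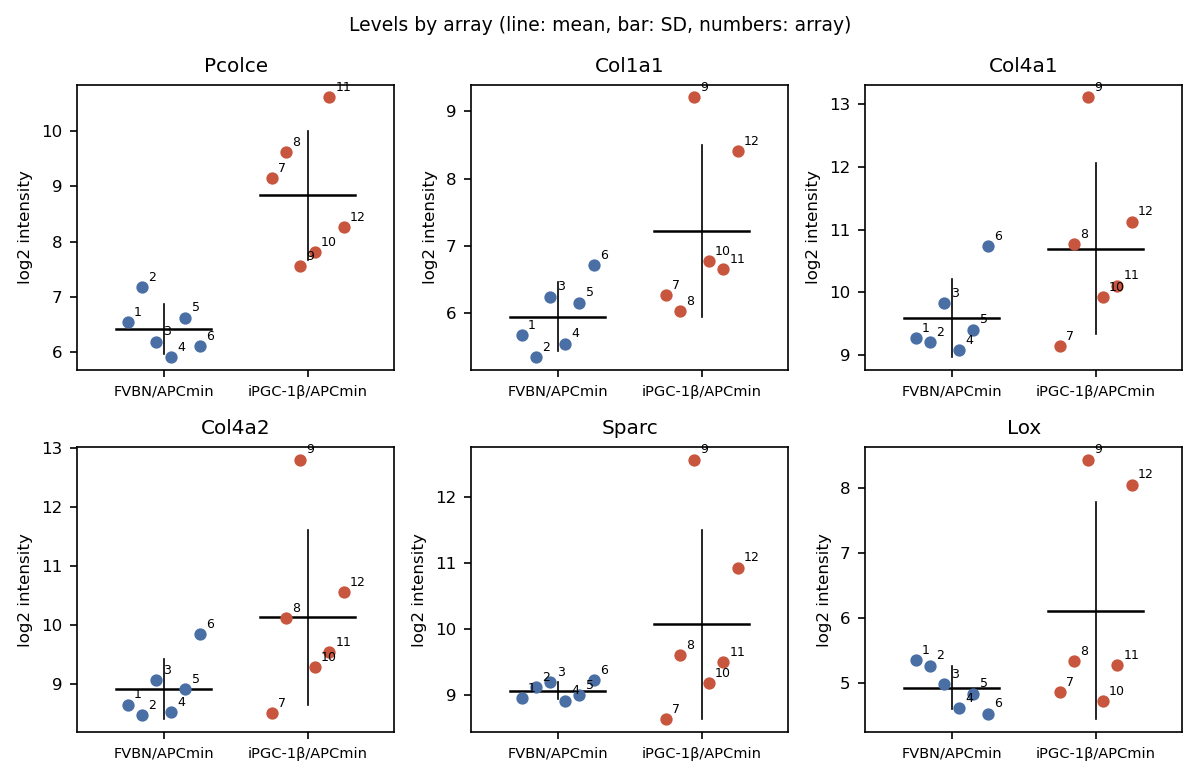
Log2 intensity of 6 matrix genes on each array (y axis), by genotype (x axis). Each point is an array with its number, the horizontal line is the group mean and the vertical bar the SD (n = 6). Pcolce separates the genotypes and is lowest of the iPGC-1β/APCmin arrays on array 9, whereas Col1a1, Col4a1, Col4a2, Sparc and Lox are highest on arrays 9 and 12.

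Basement membrane genes lay higher in iPGC-1β/APCmin as measured but without a call, with 6 of 6 tested members above 0 and a median of 0.81, and none passed (limma; 5 of 6 had an unadjusted p below 0.05, against 11.5% of all genes higher). Col4a1 and Col4a2 encode the chains of the collagen IV molecule that is found in nearly all basement membranes. Col4a2 had a log2 level of 8.65, 8.47, 9.06, 8.52, 8.91 and 9.84 on arrays 1 to 6, and 8.50, 10.11, 12.79, 9.28, 9.54 and 10.55 on arrays 7 to 12. The groups overlapped: array 6 was the highest control, array 7 lay inside the control range, and array 9 lay above every other array. The difference was 1.22 (SE 0.55, limma adjusted p = 0.202).

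Col4a1 ran alongside it, at 9.27, 9.21, 9.83, 9.08, 9.41 and 10.74 on arrays 1 to 6 and 9.15, 10.77, 13.11, 9.93, 10.11 and 11.13 on arrays 7 to 12, a difference of 1.11 (SE 0.53, limma adjusted p = 0.227). Without array 9 the differences fell to 0.63 for Col4a1 and 0.69 for Col4a2. With the lymphocyte level as a covariate, which nearly follows genotype, they were -0.16 and -0.03 (limma adjusted p = 0.967 and 0.996). Without arrays 6 and 7 together both passed, as did 19.9% of all genes in either direction (Col4a1 1.65, limma adjusted p = 0.0304, and Col4a2 1.73, limma adjusted p = 0.0345).

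The pair lie head to head and are read in opposite directions from neighbouring starts, 21 bases apart on GRCm38.p6, so their windows share 78 bases. The starts are placed so that the first bases of the genes overlap, with no gap between them. Both windows are shown because their levels moved together over the arrays. Col4a1 is on the minus strand (chr8:11312777-11313076) and Col4a2 on the plus strand (chr8:11312555-11312854); capitals mark GC boxes and CCAAT boxes on either strand.
Col4a1: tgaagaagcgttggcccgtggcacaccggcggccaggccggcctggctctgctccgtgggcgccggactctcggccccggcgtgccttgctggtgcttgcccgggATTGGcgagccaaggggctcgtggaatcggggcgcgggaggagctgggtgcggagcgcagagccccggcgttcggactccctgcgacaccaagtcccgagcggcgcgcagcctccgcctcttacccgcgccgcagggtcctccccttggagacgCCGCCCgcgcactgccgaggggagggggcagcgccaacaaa
Col4a2: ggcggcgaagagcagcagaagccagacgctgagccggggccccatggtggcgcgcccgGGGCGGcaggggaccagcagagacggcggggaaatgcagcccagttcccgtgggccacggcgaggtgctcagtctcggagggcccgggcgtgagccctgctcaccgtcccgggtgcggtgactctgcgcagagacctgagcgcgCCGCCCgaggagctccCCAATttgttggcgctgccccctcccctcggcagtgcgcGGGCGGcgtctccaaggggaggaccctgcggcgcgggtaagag
The Col4a1 window held 1 GC box and 1 CCAAT box, the Col4a2 window 3 and 1, and neither held the receptor half-site. Their GC content was 74.0% and 73.7%, against a median of 52.7% over all windows and 59.3% for Pcolce. Of the 40 tested matrix genes, 30 matched a window by symbol, with 34 windows in all. Among these, 67.6% held a GC box, 35.3% a CCAAT box and 2.94% (the window of Col11a1) the receptor half-site.

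Col18a1 and Col15a1 encode the multiplexins of basement membrane zones, and collagen XVIII yields the antiangiogenic fragment endostatin. Col18a1 ran from 8.81 to 9.78 (median 9.37) in FVBN/APCmin and from 8.63 to 11.66 (median 10.06) in iPGC-1β/APCmin, a difference of 0.84 (SE 0.39, limma adjusted p = 0.211). Col15a1 ran from 5.60 to 6.05 in FVBN/APCmin and from 5.56 to 7.25 in iPGC-1β/APCmin (0.70, SE 0.26, adjusted p = 0.133). In both genes 5 of 6 iPGC-1β/APCmin arrays lay above the highest control and array 7 lay below the lowest. Nid1 and Nid2, the nidogens that bridge collagen IV and laminin, differed by 0.66 (adjusted p = 0.137) and 0.79 (adjusted p = 0.159). Without array 7, Col15a1, Col18a1 and Nid1 passed, in a fit that called 16.6% of all genes against 3.45% with it. Col4a3, Col4a4, Col4a5 and Col4a6, collagen IV chains of more restricted tissues, stayed below the detection filter.

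Fibrillar collagens gave a mixed picture, with 6 of 8 tested members above 0, a median of 0.22, and none past the threshold (limma). At an unadjusted limma p below 0.05, 1 of 8, Col1a1, was higher, against 11.5% of all genes. Col1a1 encodes the main chain of type I collagen. Its log2 level was 5.67, 5.34, 6.24, 5.55, 6.16 and 6.71 on arrays 1 to 6, and 6.27, 6.02, 9.21, 6.77, 6.66 and 8.41 on arrays 7 to 12. Arrays 9 and 12 were far above the rest, array 10 lay just above the highest control, and the other 3 lay within the control range. The difference was 1.28 (SE 0.50, limma adjusted p = 0.144), 0.88 without array 9 and 0.49 with the lymphocyte covariate.

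Col1a2, the partner chain in type I collagen, differed by 0.13 (SE 0.45, adjusted p = 0.891) and by -0.17 between group medians. It was at 8.54 and 8.21 on arrays 12 and 9, above every control as was array 11 at 7.43, but at 5.93 to 6.03 on arrays 7, 8 and 10, below every control. Col3a1, the type III collagen of soft tissue and vessels, differed by 0.29 (SE 0.36, adjusted p = 0.672) and ran from 7.06 to 7.98 over arrays 1 to 6 and from 6.57 to 8.82 over arrays 7 to 12. Col5a1, the type V chain that seeds fibrils, differed by 0.57 (SE 0.37, adjusted p = 0.371), with 9.95 and 9.24 on arrays 9 and 12 and at most 8.52 elsewhere. Col5a3 (0.27), Col11a1 (0.17), Col24a1 (-0.04) and Col27a1 (-0.12) were detected on few arrays and ranged between 4.47 and 5.99. Col11a1, Col24a1, Col5a3 and Pcolce2 were detected on 4 arrays, just inside the filter.

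Of the 3 tested fibril-associated collagens, which coat fibrils and link them to their surroundings, none passed (limma; none had an unadjusted p below 0.05). Col12a1 varied least in FVBN/APCmin, from 6.29 to 6.60, and ran from 6.16 to 8.63 in iPGC-1β/APCmin, with 8.48 on array 9 and 8.63 on array 12. Its difference was 0.84 (SE 0.39, adjusted p = 0.218). Col16a1 differed by 0.38 (adjusted p = 0.566) with its highest value, 10.56, on array 12, and by -0.07 between group medians. Col14a1 differed by 0.17 (adjusted p = 0.725).

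Col7a1 encodes the anchoring fibrils that fasten epithelium to stroma, and it had the smallest p among the members that did not pass. It ran from 4.92 to 5.91 (median 5.38) in FVBN/APCmin and from 5.77 to 7.36 (median 6.05) in iPGC-1β/APCmin. All 6 iPGC-1β/APCmin arrays lay above the control mean, 3 of them above the highest control, and the difference was 0.89 (SE 0.29, limma adjusted p = 0.0912). Col6a1 and Col6a2, chains of the beaded filaments around cells, differed by 0.10 (adjusted p = 0.826) and 0.40 (adjusted p = 0.411). For Col6a2 array 7 stood alone at 6.13, with the other 5 arrays of its group between 7.35 and 7.81. A second kept probe of Col6a1 differed by -0.01.

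The 2 tested transmembrane collagens lay below 0, and neither passed. Col23a1 ran from 5.18 to 5.99 in FVBN/APCmin and from 4.79 to 5.41 in iPGC-1β/APCmin, and all 6 of the latter lay below the control mean (difference -0.52, SE 0.18, limma adjusted p = 0.107). Its probe was detected on 6 arrays of FVBN/APCmin and on 2 of iPGC-1β/APCmin. Col17a1, a collagen of epithelial hemidesmosomes, differed by -0.14 (adjusted p = 0.730) and was detected on 3 and 2 arrays.

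Elastic fibre and glycoprotein genes lay above 0 in 4 of 4 tested members, with a median of 0.49 and none past the threshold (limma). At an unadjusted limma p below 0.05, 1 of 4, Eln, was higher, against 11.5% of all genes. Eln encodes elastin. It ran from 5.45 to 5.91 in FVBN/APCmin, and 5 of 6 iPGC-1β/APCmin arrays lay above that range, up to 7.50 on array 9 and 7.13 on array 12 (difference 0.66, SE 0.30, adjusted p = 0.210). Fbn1, whose product fibrillin forms the microfibrils that carry elastin, differed by 0.55 (SE 0.28, adjusted p = 0.262) and also lay above the control range on 5 of 6 arrays, all but array 7. Fbln1 and Fbln2, the fibulins that bind these networks, differed by 0.43 (adjusted p = 0.465) and 0.34 (adjusted p = 0.661). Fbln1 was highest on a control tumour (11.45 on array 6), as were Col4a3bp, Col17a1 and Col23a1.

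Matricellular proteins, which modulate how cells contact the matrix rather than build it, lay above 0 in 3 of 3 tested members, and none passed (limma; none had an unadjusted p below 0.05). Sparc encodes a collagen-binding protein of remodelling tissue. Its log2 level lay between 8.91 and 9.22 on all 6 FVBN/APCmin arrays, and was 8.63, 9.60, 12.56, 9.18, 9.49 and 10.93 on arrays 7 to 12. The controls were nearly alike while the iPGC-1β/APCmin arrays spread widely, with array 7 below all controls. The difference was 1.00 (SE 0.51, limma adjusted p = 0.262), 0.50 without array 9 and 0.15 with the lymphocyte covariate.

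Tnc encodes tenascin C, a glycoprotein of wounds and tumour stroma. It ran from 7.82 to 9.04 (median 8.07) in FVBN/APCmin and from 7.42 to 10.19 (median 8.97) in iPGC-1β/APCmin, a difference of 0.84 (SE 0.41, adjusted p = 0.239). Its other kept probes differed by 0.83 and 0.30. With the probe used, Tnc passed without array 7, as did 16.6% of all genes in either direction, and its difference was -0.29 with the lymphocyte covariate. Thbs2, an antiangiogenic thrombospondin, differed by 0.15 (adjusted p = 0.876) and by -0.10 between group medians, with 9.17 on array 12 and at most 7.51 elsewhere. The relative Thbs1 was detected on 3 arrays, as was Col9a2, both just outside the filter, and the Postn probe on 0.

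The small leucine-rich proteoglycans, which bind collagen fibrils and control their diameter, had 3 tested members, of which none passed (limma; none had an unadjusted p below 0.05), and all 3 differences lay just below 0. Dcn, which encodes decorin, ran from 12.00 to 13.19 in FVBN/APCmin and from 11.60 to 13.74 in iPGC-1β/APCmin (difference -0.08, 95% confidence interval -0.79 to 0.62, adjusted p = 0.905). Bgn, biglycan, differed by -0.05 (95% confidence interval -0.82 to 0.71, adjusted p = 0.946) and Lum, lumican, by -0.03 (95% confidence interval -0.83 to 0.77, adjusted p = 0.970). These intervals still allow changes of over 1.5-fold either way. In all 3 genes array 10 was the lowest of the 12, and for Dcn and Bgn array 9 the highest.

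The genes of mesenchymal cells went opposite ways without passing. Pdgfra, a growth factor receptor of fibroblasts, ran from 8.61 to 9.53 in FVBN/APCmin and differed by 0.45 (SE 0.33, adjusted p = 0.450), with 11.12 on array 9 and at most 9.47 on the other iPGC-1β/APCmin arrays. Vim encodes vimentin, the intermediate filament of mesenchymal cells and also of leukocytes. It ran from 9.02 to 9.99 in FVBN/APCmin and from 7.76 to 10.17 in iPGC-1β/APCmin (difference -0.61, SE 0.38, adjusted p = 0.351). Array 7 was its highest array, and with the lymphocyte covariate the difference was 0.09. Col4a3bp differed by -0.08 (adjusted p = 0.828).

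**Figure D3:**
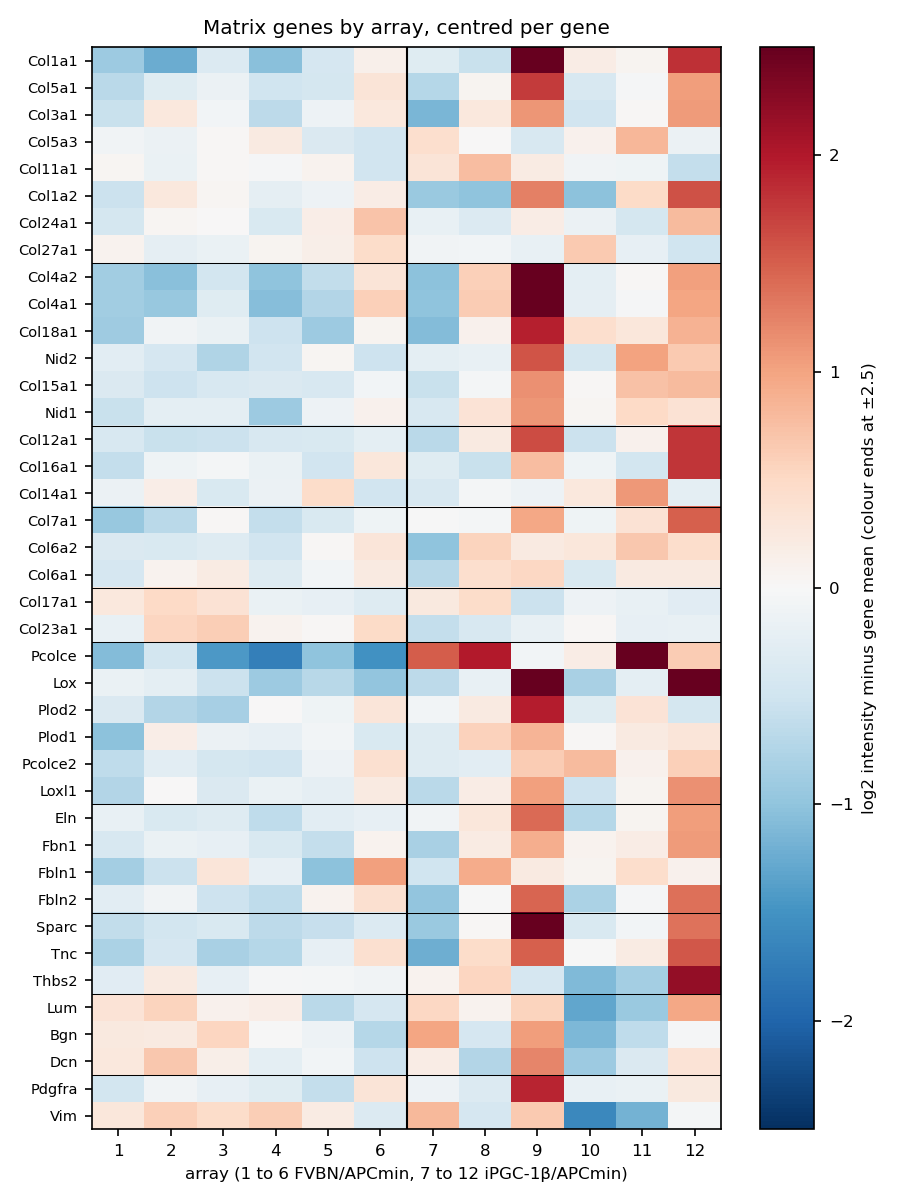
Log2 intensity of the 40 tested matrix genes on the 12 arrays after centring each gene on its mean (columns are arrays, rows are genes in the order of their roles, colour is log2 distance from the gene's mean). Arrays 9 and 12 are red for most collagens, elastic and matricellular genes, array 7 is mostly blue, and the row of Pcolce is red on arrays 7, 8 and 11.

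The members varied more within iPGC-1β/APCmin than within FVBN/APCmin. The SD was larger in iPGC-1β/APCmin than in FVBN/APCmin for 38 of 41 members, against 80.8% of all genes, and the median ratio of SDs was 2.22 for the members and 1.52 for all genes. The SD of Sparc went from 0.13 over the FVBN/APCmin arrays to 1.44 over the iPGC-1β/APCmin arrays, that of Lox from 0.34 to 1.67 and that of Col12a1 from 0.11 to 1.06. The exceptions were Fbln1 (0.77 and 0.47), Col23a1 (0.33 and 0.21) and Col4a3bp (0.25 and 0.22).

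**Figure D4:**
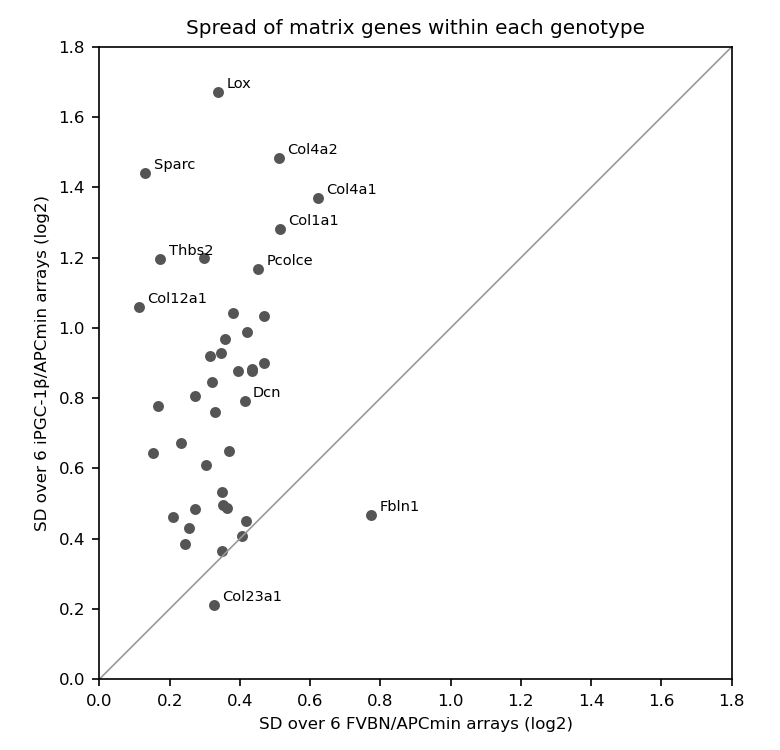
SD of each of the 40 tested matrix genes over the 6 FVBN/APCmin arrays (x axis, log2) against its SD over the 6 iPGC-1β/APCmin arrays (y axis, log2); the line marks equal SDs. All points except Fbln1 and Col23a1 lie on or above the line, with Lox at 1.67 and Col4a2 at 1.48 on the y axis.

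Most members peaked on the same pair of arrays. Array 9 held the highest value of the 12 for 19 members and array 12 for 10, so 29 of 41 members peaked on these 2 arrays, where 25.3% of all genes did. On array 9, 31 of 41 members lay above the whole FVBN/APCmin range, and on array 12, 28 did, against 25.1% and 27.4% of all genes. On array 7, 6 members lay above that range and 13 below it, against 22.2% and 21% of all genes. On array 10, 7 lay above and 8 below, against 24.8% and 23.3% of all genes, so neither count was over the background. On array 8, 16 lay above and 4 below, against 26.8% and 27% of all genes. On array 11, 17 lay above and 5 below, against 24.8% and 29.2% of all genes. The mean centred level of the members ran from -0.40 to 0.00 in FVBN/APCmin, and was -0.31, 0.11, 1.05, -0.27, 0.12 and 0.72 on arrays 7 to 12, so the groups overlapped. Without array 9 the median difference of the members was 0.28. Pcolce did not share the pattern: among the iPGC-1β/APCmin arrays it was lowest on array 9.

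Other genes of matrix assembly, from lists written from general knowledge, had no member past the threshold (limma, counts at an unadjusted p below 0.05 in brackets). Over all genes 11.5% were higher and 11.8% lower at that p. Of the collagen synthesis machinery 14 genes were tested (2 higher and 0 lower), with a median of 0.08. Within it Fkbp10, a collagen chaperone, differed by 0.74 (adjusted p = 0.0862), and P4ha2, a prolyl hydroxylase subunit, by 1.53 (adjusted p = 0.123) with 10.07 on array 9. P4hb, the other subunit and a general folding enzyme, differed by -0.43 (adjusted p = 0.265). Laminins and other basement membrane proteins had a median of 0.61 over 10 genes (2 higher and 0 lower). There Lama1, a laminin chain, differed by 2.07 (SE 0.78, adjusted p = 0.133), at 5.09 to 5.87 in FVBN/APCmin and 5.18, 7.50, 11.48, 6.69, 6.21 and 8.14 on arrays 7 to 12. Hspg2, which encodes perlecan, differed by 0.59 (adjusted p = 0.202) and Lamb2 by 0.64 (adjusted p = 0.277), both highest on array 9.

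Collagen and matrix receptors had a median of 0.18 over 16 genes (2 higher and 0 lower), among them the integrins Itgav (0.65, adjusted p = 0.118) and Itga1 (0.60, adjusted p = 0.212) and the collagen-sensing kinase Ddr1 (0.77, adjusted p = 0.252). The remaining glycoproteins and proteoglycans had a median of -0.00 over 21 genes (2 higher and 2 lower). Ogn, another small proteoglycan, differed by -1.04 (adjusted p = 0.127), Dpt, the collagen-binding dermatopontin, by -0.77 (adjusted p = 0.169) and Ecm1 by 0.74 (adjusted p = 0.177).

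Markers of cells that make matrix were set beside these values. The fibroblast list (10 of 16 genes tested, no member of the matrix set) had a level of -0.08 to 0.16 over arrays 1 to 6 and of -0.18 to 0.25 over arrays 7 to 12, with 0.07 on array 9 and -0.02 on array 12. None of its genes passed (limma, with 1 higher and 1 lower at an unadjusted p below 0.05, against 11.5% and 11.8% of all genes). Pdgfrb, a receptor of fibroblasts and pericytes in it, differed by 0.56 (adjusted p = 0.187) and Dpep1, which the epithelium also expresses, by -1.22 (adjusted p = 0.0528). Dpep1 was at 9.87 on array 9, against 12.35 to 12.84 in FVBN/APCmin, which pulls the list's level down on array 9. With the fibroblast level as a covariate the median difference of the members was 0.46, and Pcolce was at 2.48 (adjusted p = 0.00856). Of the 10 genes in that level 6 differed above 0 and 4 below, and their mean varied little between arrays. The fit therefore does not show how much of the matrix difference goes with fibroblasts. The smooth muscle list (10 of 12 tested) ran from -0.57 to 1.36 and from -0.96 to 1.41, highest on arrays 8 and 6, with no gene at an unadjusted p below 0.05 (limma), and with it as a covariate the median was 0.46.

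Endothelial markers (12 of 12 tested) ran from -0.45 to -0.09 in FVBN/APCmin and from -0.14 to 0.71 in iPGC-1β/APCmin, with the highest level on array 9. None passed. At an unadjusted limma p below 0.05, 8 were higher and 1 lower, against 11.5% and 11.8% of all genes. Among the higher were Cdh5 (0.72, limma adjusted p = 0.0556) and Esam (0.91, limma adjusted p = 0.0854) of endothelial junctions. In the next 4 lists no gene passed (limma), and all genes with an unadjusted p below 0.05 were higher. Pericyte markers (6 of 7 tested, 2 with such a p) ran from -0.53 to 0.59 and from -0.68 to 0.66. Red blood cell genes (3 of 5 tested, 3 with such a p) ran from -1.84 to -0.17 and from -1.66 to 3.71, with 3.71 on array 9 and 2.75 on array 12. Neutrophil and mast cell genes (7 of 12 tested, 3 with such a p) ran from -1.09 to 0.72 and from -0.97 to 1.76, the last on array 9. Wnt-active adenoma markers (10 of 10 tested, 5 with such a p), which mark tumour epithelium, ran from -0.82 to 0.30 and from -0.85 to 1.84. They were at 1.84 on array 12, 1.17 on array 9 and 1.12 on array 10, where the matrix level was -0.27. Of the remaining lists no gene passed either (limma): the median difference was -0.31 over 9 epithelial genes, -1.46 over 3 ileal enterocyte genes, -0.37 over 8 macrophage genes, 0.03 over 3 lymphatic endothelial genes, 0.20 over 4 genes of enteric neurons and glia and -0.20 over 4 adipocyte genes (4, 2, 0, 1, 1 and 1 of them had an unadjusted p below 0.05). The part of these cells and of tumour content in the matrix values was not tested.

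Lymphocyte markers had differences below 0 in all 12 tested T and NK cell genes and all 9 tested B cell genes, of which 3 and 0 passed (limma). Over all genes 1.23% passed lower. T and NK cell markers (12 of 16 tested) ran from -0.64 to 1.64 in FVBN/APCmin and from -1.99 to 1.36 in iPGC-1β/APCmin, and B cell markers (9 of 11 tested) from -1.35 to 2.32 and from -2.51 to 2.92. Of the T and NK cell genes 3 fell (log2 differences of -1.71 for Nkg7, -2.12 for Cd8b1 and -2.31 for Cd3e, limma adjusted p = 0.039, 0.0443 and 0.0492). Of the B cell genes none passed (limma), and 9 of 9 were lower at an unadjusted p below 0.05, against 11.8% of all genes. In both lists array 6 was the lowest control and array 7 the highest of its group. With the mean of these lists as a covariate 22 members lay above 0 and 19 below, and the median difference was 0.09 (-0.00 over all genes). Because this mean nearly follows genotype, that fit does not show how much of the matrix difference goes with lymphocytes. Without array 7, 8 of 41 members passed, all higher (Col15a1, Col18a1, Col6a2, Col7a1, Fbn1, Nid1, Pcolce and Tnc). Of all 10967 genes, 848 passed higher and 973 lower in that fit (16.6% together). Without arrays 6 and 7 together 13 of 41 passed, all higher, and the median member difference was 0.68. The 13 were Col1a1, Col4a1, Col4a2, Fbln1, Pcolce2 and the same 8. Of all genes, 1056 passed higher and 1128 lower in that fit (19.9% together). With array quality weights 9 of 41 passed: Col15a1, Col18a1, Col1a1, Col7a1, Nid1, Pcolce, Pcolce2 and Tnc higher, and Vim lower. Of all genes, 1192 passed higher and 1211 lower with these weights (21.9% together).

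**Figure D5:**
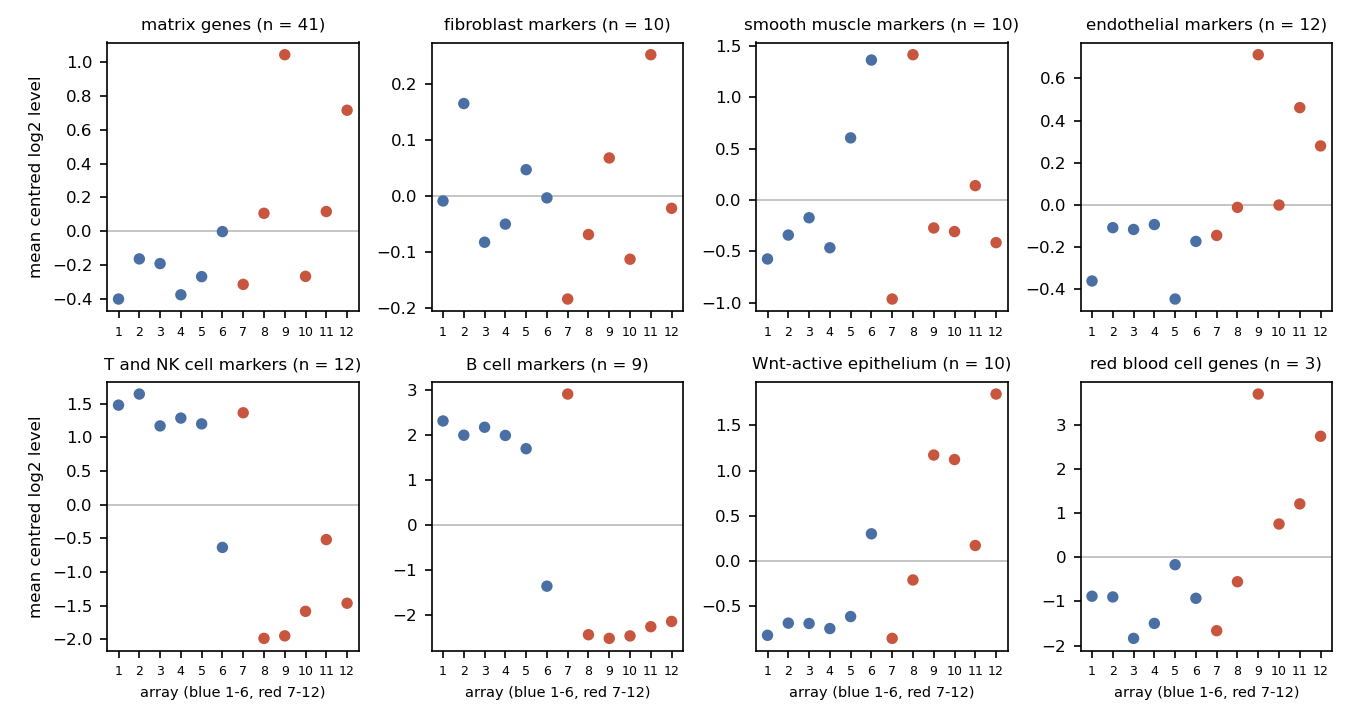
Mean centred log2 level (y axis) of the matrix members and of 7 marker lists on each array (x axis; blue FVBN/APCmin, red iPGC-1β/APCmin; n is the number of genes tested). The matrix level peaks at 1.05 on array 9 and 0.72 on array 12, as do red blood cell genes at 3.71 and 2.75, while arrays 6 and 7 lie with the other group in the T and NK cell and B cell panels.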

How the data were processed

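Per the column headers, the deposited unnormalized table gives the average signal of each probe on each array and a detection p-value. The signal was taken as linear with no background subtracted, and the detection p-value as one against the array's negative controls. The authors' normalized table holds linear intensity that, from its values, was quantile-normalized. The submitters' processing notes name GenomeStudio and give no version. Probe positions were not used.

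The software was limma 3.58.1 under R 4.3.3. Steps were neqc (control statistics inferred from detection p-values, offset 16, quantile normalization, log2), then a filter that kept 14827 probes detected at p under 0.05 on 4 or more of 12 arrays, then the probe with the highest mean per symbol. The 6 and 6 arrays were compared with lmFit and eBayes with a trend, adjusted over all 10967 genes. No pair of arrays held identical values. The procedure was tested on simulated data with independent noise and the same SD in both genotypes. That test could not show how calls fare under shifts shared by many genes on an array or under unequal SDs. Members, gene lists, tests and alternatives were chosen with earlier results of these data known. Genes named were all members past the threshold, in each role the 3 largest differences and the 2 highest means, and a few genes of smallest p per list. Other members were added. Alternatives changed the offset, background correction, normalization, table, filter, probe choice, variance model, weights, covariates and arrays. The number of arrays limits the precision. Promoter windows came from RefSeq.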

Additional observations from a re-analysis of the deposited data

Results flagged for a closer look

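Within a group of 6 arrays, 5 members had an array whose gap to the nearest other, as a share of the group's range, exceeded Dixon's 95% critical value. In all 84 groups were examined, those of the 41 members and of Ppargc1b in each genotype, and chance flags about 1 in 20. Pdgfra stood out on array 9 (11.12, next 9.47, ratio 0.738), and so did Plod2 (7.57, next 5.96, ratio 0.670). Col6a2 was low on array 7 (6.13, next 7.35, ratio 0.729). Col15a1 was high on array 6 (6.05, next 5.75, ratio 0.659), and Col27a1 on array 10 (5.75, next 5.02, ratio 0.630). Col27a1 was detected on 1 array of iPGC-1β/APCmin.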

How the results depend on the processing

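The call of Pcolce held in 26 of 27 alternatives with a test and ended with the lymphocyte level as a covariate (2.81, adjusted p = 0.105), where 0 members and 4 genes were called. Members called numbered 9 with array quality weights (2403 genes called) and 13 without arrays 6 and 7 together (2184 genes), and 1 to 8 in the fits leaving out each array. The 8 came without array 7. Genes called numbered 200 with no filter, 633 with the fibroblast covariate, 1163 with the smooth muscle covariate, and 129 to 1821 over the fits leaving out each array, against 378. The arrays that moved this count by over 1.5 times when left out were 1 (138), 2 (157), 3 (129), 4 (172), 5 (145), 6 (727), 7 (1821), 10 (190), 11 (169) and 12 (248). The median member difference stayed above 0 in all of these, at 0.28 to 0.59 over the fits leaving out each array and between 0.09, with the lymphocyte covariate, and 0.68, without arrays 6 and 7 together. Without that covariate the lowest was 0.24, with no background correction and in the authors' table. The difference of group medians, chosen after seeing the data, gave 0.33. Of 1130 single member values under alternatives, 1046 kept direction and call, 27 became called, 1 lost its call and 56 of uncalled members changed sign. The cause of these changes was not tested. Of 11 other kept probes of 8 members, 8 had the sign of the probe used. No paired analysis was possible because the replicate numbers of the genotypes do not overlap. Dim probes limit Lox, Pcolce2, Col5a3, Col11a1, Col17a1, Col24a1 and Col27a1, each detected on 4 or 5 of 12 arrays.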
